A study of Taeniopygia guttata with 39 samples.

Results

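RSPO1, CTNNB1 and CDH19 were followed in female canaries in HVC, the pallial song nucleus that feeds the vocal motor pathway, at 6 times after the start of testosterone treatment. RSPO1 encodes R-spondin 1, CTNNB1 encodes beta-catenin and CDH19 encodes cadherin 19. Each gene was taken from the row of the value table whose RefSeq transcript identifier, without its version, belongs to the zebra finch gene of that name. The brightest row was to stand for a gene, and each of the 3 genes had 1 row. They are 3 of 2236 genes that could be named and of 26061 identifiers in the table. The 3 genes were chosen by their measured 3-hour values, which had already been seen to differ from control, from 1 h and from 8 h. All differences of the 3 genes that use the 3-hour, control, 1-hour or 8-hour birds are therefore given as descriptions of these birds, with no test.

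Beta-catenin has roles in both Wnt signalling and adhesion. In canonical Wnt signalling, cytoplasmic beta-catenin is tagged for degradation by a complex that includes GSK3B, APC and axin until a Wnt ligand engages a frizzled receptor with LRP5 or LRP6. It then accumulates and acts with TCF/LEF factors on target genes. R-spondins are secreted proteins that bind LGR receptors and the ubiquitin ligases ZNRF3 and RNF43, and so keep Wnt receptors at the cell surface. At the membrane, beta-catenin ties the cytoplasmic tail of classical cadherins to alpha-catenin and actin. CDH19 is a type II classical cadherin, known in rodents from the glial lineage of peripheral nerve. These sentences are textbook background and not results of these birds.

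The design text describes adult females of S. canaria, whereas the samples are labelled as Taeniopygia guttata, the zebra finch. All birds were kept as non-breeding birds on short days with 9 h of light and 15 h of dark, and under the skin of each lay a Silastic tube 7 mm long. In the 5 control birds the tube was empty. Testosterone-filled tubes were in place for 1 h, 3 d, 7 d or 14 d in groups of 6 birds each, and for 3 h or 8 h in groups of 5. The labels call the 7-day and 14-day birds singing and the other groups, controls included, non-singing. Each of the 39 arrays held HVC RNA of 1 bird, dissected from cryosections, and the number of arrays limits the precision. In such tissue RNA, fewer cells of a type and less RNA per cell cannot be told apart.

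The deposited values are on a log2 scale, so a difference of 1 is a doubling of signal. Array medians ran from 7.49 to 7.91. Replicate 2 of the 3-hour group stood apart from the rest, since its correlation with each of the others had a median of 0.886, where every other array had at least 0.963. The 3-hour means and differences of the 3 genes are given with and without it. The bird numbers in the sample titles fall into 3 separate ranges, one for the 1-hour, 3-hour, 7-day and 14-day birds, one for the 8-hour and 3-day birds and one for the controls, and what these ranges stand for is not given. Between ranges, treatment and title range cannot be told apart, so the 3-hour group is also set against the 3 other groups of its own range.

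RSPO1 was highest at 3 h. The 5 control birds had 7.63, 7.86, 7.91, 7.59 and 7.54. The 5 birds at 3 h had 9.24, 9.67, 9.13, 9.47 and 8.46 in replicates 1 to 5. All 5 of these birds lay above all control birds and above all 14-day birds, and 4 of 5 lay above every other bird of the study. The exception was replicate 5, at 8.46, which the highest birds at 1 h, 8 h, 3 d and 7 d exceeded. At 3 h 28.6% of all identifiers passed the test against control (limma, adjusted p under 0.05), a contrast that the choice of the 3 genes has already used. The group mean was 9.20 ± 0.46 (SD, n = 5) at 3 h and 7.70 ± 0.17 (SD, n = 5) in controls, a difference of 1.49 ± 0.26 (SE) on the log2 scale, or 2.81-fold. Each SE of a difference is from the limma fit, with 1 spread per gene shared by all groups. Without replicate 2, the brightest of the 5, the 3-hour mean was 9.08 ± 0.43 (SD, n = 4) and the difference 1.37.

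At every other time the range of RSPO1 overlapped that of the controls, although each group mean lay above the control mean. At 1 h the lowest, median and highest birds had 7.67, 7.92 and 8.81. At 8 h the 5 birds had 7.38, 7.21, 7.76, 8.62 and 7.96, so that 2 of them lay below every control bird. The 3-day birds ran from 7.30 over a median of 7.67 to 8.72. Each of these groups thus had a bird above all controls. In the 7-day birds, labelled singing, the lowest, median and highest values were 7.59, 8.32 and 8.92, and in the 14-day birds 7.77, 8.12 and 8.39. Both medians lay above the highest control bird, 7.91, and that at 1 h just above it. After centring each array on its median, the highest control bird had 8.032. The centred medians were 8.355 at 7 d, 7.985 at 14 d and 7.87 at 1 h, so that only the one at 7 d stayed above it. As descriptions with limma intervals, the means differed from control by 0.56 at 7 d (0.055 to 1.07) and 0.42 at 14 d (-0.083 to 0.93). At 1 h, 8 h and 3 d they differed by 0.32 (-0.19 to 0.82), 0.08 (-0.45 to 0.61) and 0.08 (-0.42 to 0.59). Of all identifiers, 430 had a higher change than RSPO1 at 7 d and 8202 at 14 d. The order of group means, from low to high, was control, 8 h, 3 d, 1 h, 14 d, 7 d and 3 h. Only the step from 7 d to 3 h, 0.93, was larger than the larger SD of the pair of groups, 0.58. The other neighbours in that order do not differ beyond their spread.

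CTNNB1 was lowest on average at 3 h, and this mean hid a wide spread between birds. The 5 control birds had 10.47, 10.11, 10.80, 10.59 and 10.48. The 3-hour birds had 7.65, 9.57, 7.51, 9.91 and 10.18 in replicates 1 to 5. Thus replicates 1 and 3 lay more than 2 log2 units below every control bird, replicates 2 and 4 lay closer, and replicate 5 lay inside the range of the controls. The 3-hour mean was 8.97 ± 1.28 (SD, n = 5) against 10.49 ± 0.25 (SD, n = 5), a difference of -1.53 ± 0.45 (SE), 2.88-fold lower. This SE rests on 1 spread shared by all groups, whose SDs ran from 0.163 at 8 h to 1.406 at 3 d. It therefore does not reflect the wide spread of the 3-hour birds alone. Without replicate 2 the 3-hour mean was 8.81 ± 1.43 (SD, n = 4) and the difference -1.68. Leaving out replicate 3 brought the difference to -1.16 and leaving out replicate 5 to -1.83.

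In the other groups CTNNB1 lay below every control bird in 4 of 6 birds at 1 h, 4 of 6 at 14 d and 1 of 6 at 3 d, and in none at 8 h or 7 d. At 8 h the 5 birds had 10.34, 10.59, 10.15, 10.35 and 10.24, and at 1 h the lowest, median and highest birds had 9.93, 10.05 and 10.94. At 7 d they had 10.13, 10.42 and 10.78, and at 14 d 9.52, 9.84 and 10.38. At 3 d replicate 2 had 7.18 and the other 5 birds 10.18 to 10.91. Over all 39 birds, 3 had 7.18 to 7.65, namely replicates 1 and 3 at 3 h and replicate 2 at 3 d, and the other 36 had 9.52 to 10.94. The gap of 1.87 between them was the widest between neighbouring birds, and the next widest was 0.33. The order of group means from low to high was 3 h, 14 d, 3 d, 1 h, 8 h, 7 d and control. No step in it exceeded the larger SD of its pair of groups, the step from 3 h to 14 d included (0.93 against 1.28).

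CDH19 was highest at 3 h. The control birds had 7.89, 7.56, 8.10, 8.01 and 7.46, and the 3-hour birds 8.46, 9.31, 9.61, 9.92 and 9.93 in replicates 1 to 5. All 5 birds at 3 h lay above all controls and all 7-day birds, and 4 of 5 above every other bird of the study. The exception here was replicate 1. The mean was 9.45 ± 0.61 (SD, n = 5) at 3 h and 7.80 ± 0.28 (SD, n = 5) in controls, a difference of 1.64 ± 0.26 (SE), or 3.12-fold. Replicate 2 lay near the middle of the group, and without it the mean was 9.48 ± 0.69 (SD, n = 4) and the difference 1.67.

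At 8 h the mean of CDH19 was lower than at 3 h, with 8.63, 7.87, 8.19, 8.75 and 8.09 in replicates 1 to 5. Replicates 1, 3 and 4 lay above the highest control bird, 8.10. At 1 h the lowest, median and highest birds had 7.08, 7.98 and 8.47, and at 3 d 7.44, 7.97 and 9.02. At 7 d they had 7.89, 8.06 and 8.32, and at 14 d 7.97, 8.18 and 8.74. All these groups overlapped the controls. As descriptions with limma intervals, the means of CDH19 differed from control by 0.10 at 1 h (-0.40 to 0.59) and 0.50 at 8 h (-0.018 to 1.02). At 3 d, 7 d and 14 d they differed by 0.35 (-0.14 to 0.85), 0.29 (-0.21 to 0.78) and 0.45 (-0.041 to 0.95). The order of means from low to high was control, 1 h, 7 d, 3 d, 14 d, 8 h and 3 h. Only the last step, 1.14 from 8 h to 3 h, was larger than the larger SD of its pair of groups, 0.61.

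**Figure D1:**
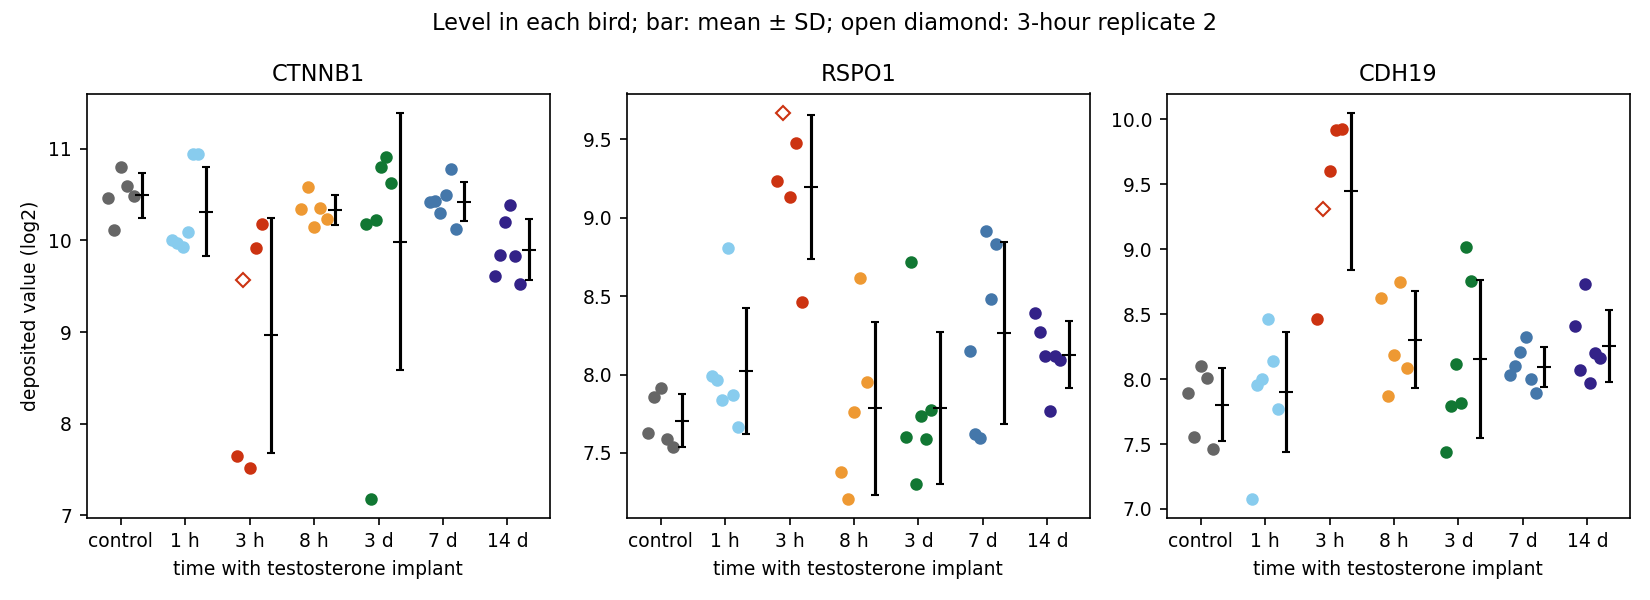
Deposited log2 value of CTNNB1, RSPO1 and CDH19 in each of the 39 birds (points) by time with the testosterone implant, with the group mean and SD beside the points and 3-hour replicate 2 as an open diamond. At 3 h, RSPO1 and CDH19 stand above the controls in all 5 birds, while CTNNB1 is spread from 7.51 to 10.18.

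Against the groups that share its range of title numbers, the 3-hour group differed in the same directions. The mean of the 1-hour, 7-day and 14-day groups was passed by 1.06 for RSPO1 and by 1.36 for CDH19, and CTNNB1 differed by -1.25. Without replicate 2 these differences were 0.94, 1.39 and -1.40. From 3 h to 8 h the mean of RSPO1 differed by -1.41 and that of CDH19 by -1.14, and that of CTNNB1 by 1.37. Without replicate 2 these were -1.29, -1.17 and 1.52. Centring each array on its median left the 3-hour differences from control at 1.36 for RSPO1, 1.51 for CDH19 and -1.66 for CTNNB1, and at 1.25, 1.55 and -1.80 without replicate 2. Among the changes of all 26061 identifiers from control to 3 h, 52 were higher than that of RSPO1, 34 higher than that of CDH19 and 19 lower than that of CTNNB1.

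The bird numbers in the titles end in L, R or no letter, with a meaning not given, and these letters were spread unevenly. Of the 3-hour birds 1 has L and 4 have R, and of the controls 4 have L and 1 has R. Of the 8-hour birds 1 has L and 4 have no letter. Only 2 other birds, both of the 3-day group, have no letter. A term for the letter can thus hardly be told apart from the 8-hour group. Within R the 3-hour birds differed from the control bird by 1.47 for RSPO1, 1.22 for CDH19 and -2.14 for CTNNB1. Within L, with 1 bird at 3 h, the differences were 0.81, 2.20 and -0.24. RSPO1 and CDH19 were thus higher at 3 h under both letters, and the single L bird at 3 h, replicate 5, was the one with CTNNB1 at the level of the controls. The part of the letter in this was not tested.

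**Figure D2:**
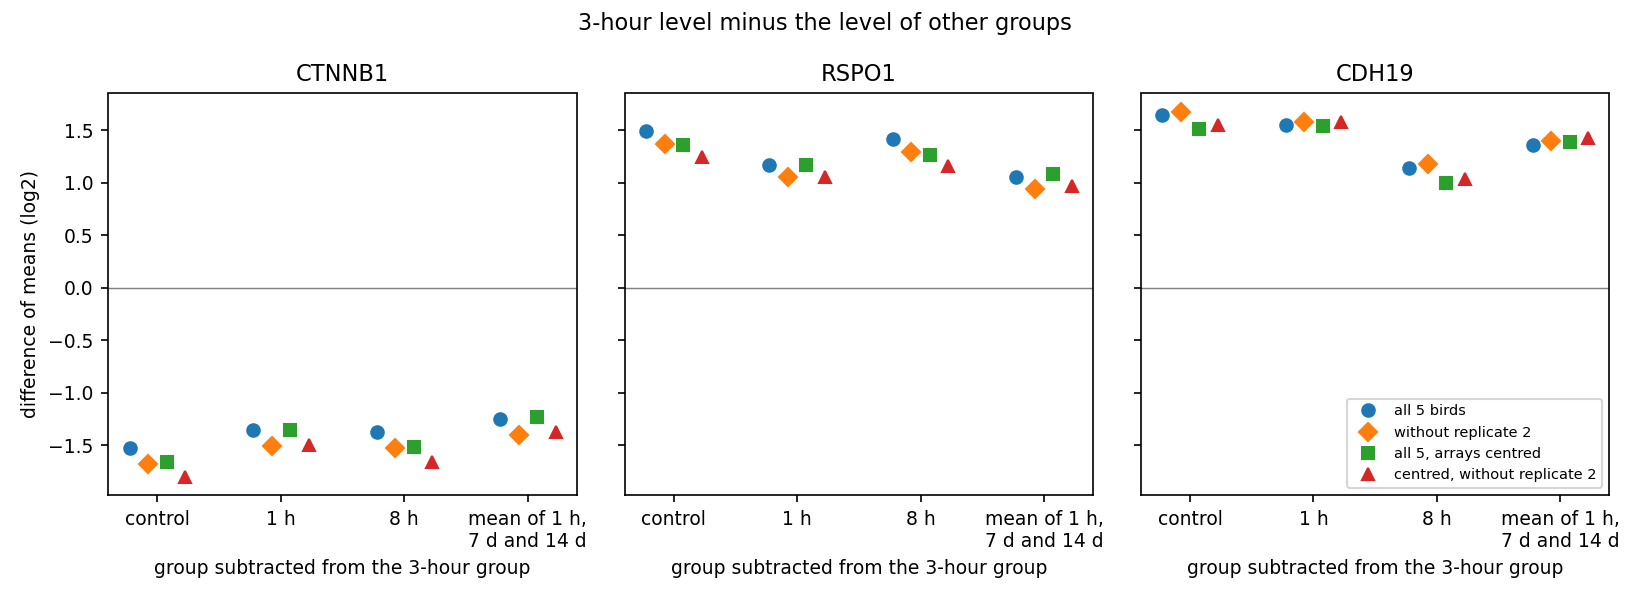
Mean at 3 h minus the mean of another group (log2) for each gene, with all 5 birds, without replicate 2, and for both after centring each array on its median. All differences lie above 0 for RSPO1 and CDH19 and below 0 for CTNNB1, under each of the 4 settings.

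The differences of means from 3 d to 7 d and from 7 d to 14 d use none of the birds in the comparisons behind the choice, and these steps were tested. The limma tests and intervals of these steps still draw on those birds, through the spread that all groups share. They are thus not fully separate from the choice. The exact permutation tests use only the birds of the 2 groups compared. None of the 3 genes passed at either step in limma with Benjamini-Hochberg adjustment over all 26061 identifiers. Of all identifiers, 16.2% passed from 3 d to 7 d and 14.0% from 7 d to 14 d. The step from 8 h to 3 d and the difference between the mean of 7 d and 14 d and 1 h hold 8-hour or 1-hour birds, and are described with their intervals and no test. For RSPO1 the larger of the tested differences was 0.48 from 3 d to 7 d, with a 95% interval from -0.0035 to 0.96 and an adjusted p of 0.155. Leaving out 3-day replicate 2, which had 8.72 where the other 5 birds had 7.30 to 7.77, made this difference 0.66 with an adjusted p of 0.039. RSPO1 differed by -0.14 from 7 d to 14 d (interval -0.62 to 0.34). As described values, it differed by 0.00 from 8 h to 3 d (-0.50 to 0.51) and by 0.17 between the mean of the singing groups and 1 h (-0.25 to 0.59). The exact permutation test of the 3-day and 7-day birds gave a two-sided, unadjusted p of 0.143 for RSPO1.

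CTNNB1 differed by -0.53 from 7 d to 14 d, with an interval from -1.36 to 0.31 and an adjusted limma p of 0.379. In a fit of these groups alone, which leaves out the spread of the 3-hour and 3-day birds, the adjusted limma p for CTNNB1 was 0.0296. The exact permutation test of the 6 against 6 birds gave 0.0152, two-sided and unadjusted, the smallest of 6 such tests, and 0.0912 after Benjamini-Hochberg adjustment over the 6. From 8 h to 3 d CTNNB1 differed by -0.35 (interval -1.22 to 0.53) and from 3 d to 7 d by 0.44 (-0.40 to 1.27). Both turned sign without 3-day replicate 2, to 0.21 and -0.12. The singing groups differed from 1 h by -0.15 (-0.88 to 0.57).

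CDH19 differed by -0.15 from 8 h to 3 d (interval -0.64 to 0.35), by -0.06 from 3 d to 7 d (-0.54 to 0.41), by 0.17 from 7 d to 14 d (-0.31 to 0.64) and by 0.27 between the singing groups and 1 h (-0.13 to 0.68). Its adjusted p in limma was 0.874 from 3 d to 7 d and 0.644 from 7 d to 14 d. The intervals reach 0.68 for CDH19 and further for the other genes, so a p above the threshold does not show that levels were equal.

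**Figure D3:**
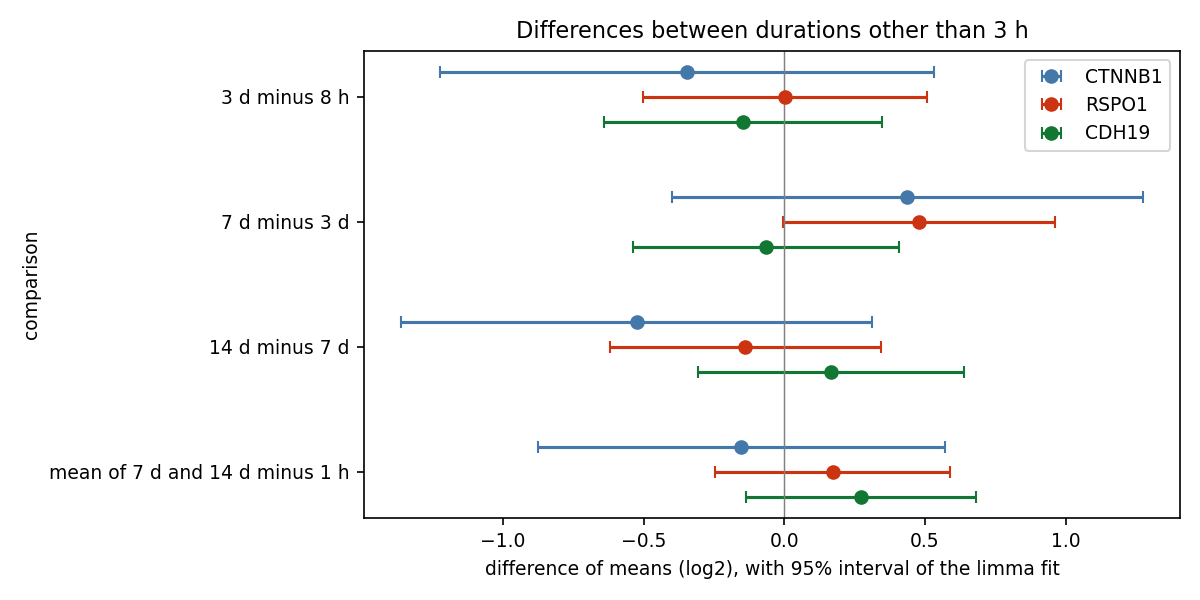
Differences of group means (log2) with 95% intervals from the limma fit for CTNNB1, RSPO1 and CDH19 between durations other than 3 h. All 12 intervals hold 0, and those of CTNNB1 are the widest. The steps from 3 d to 7 d and from 7 d to 14 d are tested, and the other comparisons are descriptions.

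The 3 genes varied more between birds of a group than most identifiers. The SD within groups was 0.77 for CTNNB1, higher than in 99.2% of the identifiers, 0.43 for RSPO1 (92.6%) and 0.43 for CDH19 (91.9%), where the median of all identifiers was 0.25. Across the 39 arrays, which share the treatment groups, RSPO1 and CDH19 had r = 0.54, RSPO1 and CTNNB1 r = -0.56 and CTNNB1 and CDH19 r = -0.21. After group means were taken off, these were 0.06, -0.38 and 0.40. Little was thus left of the r of RSPO1 and CDH19, and for CTNNB1 and CDH19 the sign of r turned. The 3 genes were chosen by their 3-hour values, so their r over the 39 arrays is in part set by that choice. The 3 birds with low CTNNB1 had RSPO1 at 9.24, 9.13 and 8.72 and CDH19 at 8.46, 9.61 and 7.79, in the order of 3-hour replicates 1 and 3 and 3-day replicate 2. Every r of CTNNB1 given here includes these birds, and r without them was not computed.

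Named genes whose values followed each of the 3 closely over the 39 arrays were found by Pearson's r among 2235 others, given as a description since all points share the same birds, groups and arrays. For CDH19, genes among the closest were DIRAS2, a small GTPase gene (r = 0.77), and CRYAB, which encodes a small heat shock protein (0.77). With deviations from the group means r was 0.59 and 0.61. The genes named here and below were picked by r over these same arrays. Their likeness within groups and in single birds follows in part from that pick and is no separate result. For DIRAS2 the 3-hour birds had 9.63 in replicate 1 and 10.86 to 11.19 in the other 4, and the control birds 8.90, 9.53, 9.31, 9.30 and 9.20. All 5 birds at 3 h lay above the controls for DIRAS2, and its lowest 3-hour value was in replicate 1, the bird with the lowest CDH19 of its group. CRYAB had 6.25, 7.33, 7.45, 7.14 and 6.81 at 3 h and 5.80, 5.47, 5.74, 5.97 and 5.30 in controls, with its lowest 3-hour value also in replicate 1.

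For RSPO1 the closest genes were MACO1 (r = 0.80), PSAT1 (0.78), which encodes an enzyme of serine synthesis, and TOP1MT (0.75), the mitochondrial topoisomerase. Within groups r was 0.59, 0.66 and 0.59. MACO1 had 10.37, 11.37, 10.52, 10.51 and 9.74 at 3 h, with its lowest bird in replicate 5 and its highest in replicate 2, as RSPO1 had. Without replicate 2, r over the other 38 birds was 0.75 for MACO1, 0.73 for PSAT1 and 0.71 for TOP1MT. The closest genes of CTNNB1 were less close. TRIP4, a transcription coactivator gene, had r = 0.51, ESR1, which encodes oestrogen receptor alpha, 0.50 and EDIL3, an integrin ligand gene, 0.48. Within groups they had 0.37, 0.48 and 0.21. TRIP4 had its lowest 3-hour values, 4.21 and 3.92, in replicates 1 and 3, 2 of the 3 birds with low CTNNB1. In the third, 3-day replicate 2, TRIP4 was 4.81, inside the range of the other birds. ESR1, in contrast, had its lowest value of all birds in 3-day replicate 2, at 5.30. The next lowest ESR1 was 6.42, in 3-hour replicate 3, while 3-hour replicate 1 had 7.05, inside the range of the other birds. Both r of ESR1 with CTNNB1 include 3-day replicate 2, and r without this bird was not computed.

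**Figure D4:**
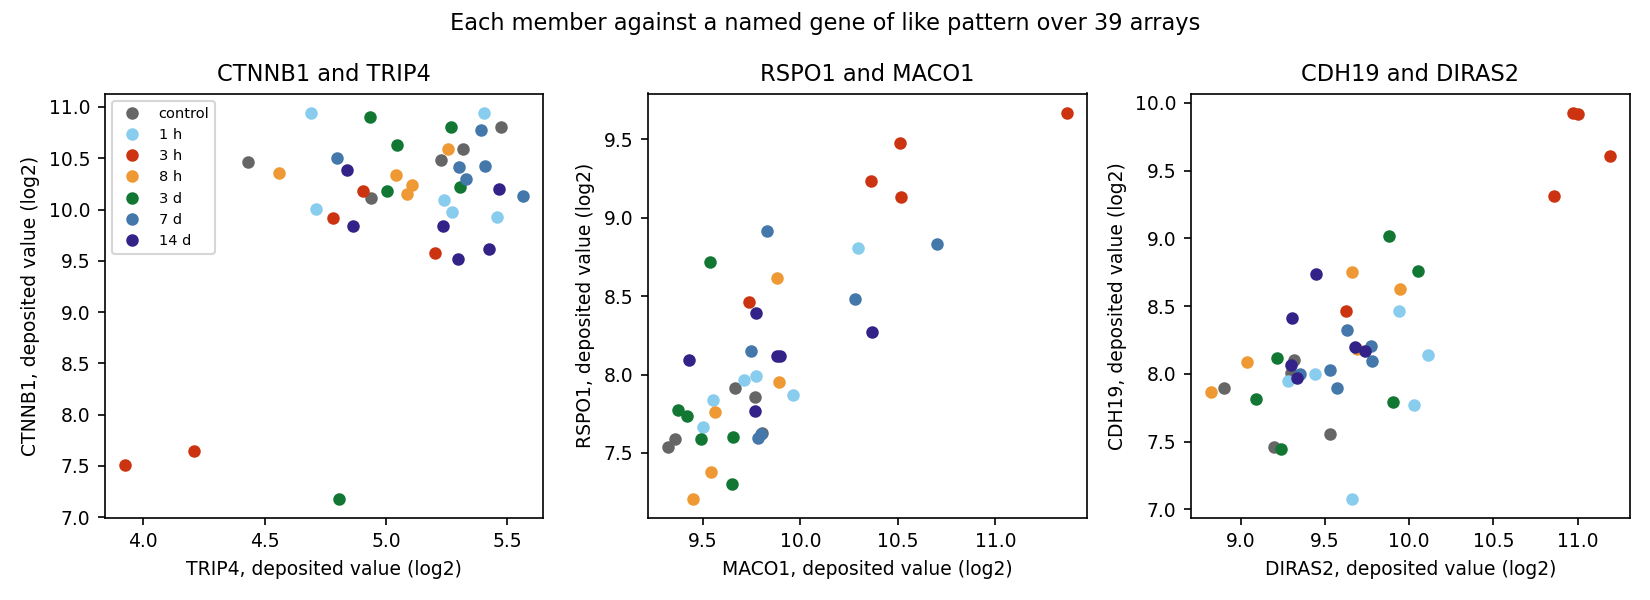
Level of each of the 3 genes (log2, vertical axis) against that of a named gene of like pattern (log2, horizontal axis), 1 point per bird, coloured by group. CDH19 with DIRAS2 (r = 0.77) and RSPO1 with MACO1 (r = 0.80) form bands with most 3-hour birds at their upper end, while CTNNB1 and TRIP4 (r = 0.51) are loose and 3 birds stand apart at low CTNNB1.

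Markers of cell types were read beside these levels. Of the oligodendrocyte lineage CLDN11 and TF are given here, and most of the listed markers had no named row. The mean log2 level of both ran from 7.67 over 7.74 to 8.01 in controls and from 7.91 over 7.99 to 8.94 at 3 h, so the groups overlapped. TF was higher at 3 h by 0.44 in limma (adjusted p = 0.033), but by 0.26 without replicate 2, where it did not pass (adjusted p = 0.202). CLDN11 did not pass (0.30, adjusted p = 0.119). Of the Schwann cell and neural crest list, which covers the known sites of CDH19 in rodents, FOXD3 is given, with 7.02 to 7.49 in controls and 7.33 to 7.82 at 3 h, and it did not pass at 3 h (0.25, adjusted p = 0.123). The part of these cells in the level of CDH19 was not tested.

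RSPO1 followed AQP1, a water channel of the choroid plexus, with r = 0.74 over the arrays and 0.51 within groups. The other 3 measured markers of the ependymal and choroid plexus list were less close, with r = -0.03 for FOXJ1, 0.47 for KL and 0.39 for RSPH1 (-0.02, 0.36 and 0.16 within groups). AQP1 was higher at 3 h than in controls by 0.80 (adjusted p = 0.00769 in limma; 0.69 and adjusted p = 0.0383 without replicate 2), and of the 4 it alone passed. The 4 measured of 10 listed ependymal and choroid plexus markers had a mean level of 5.30 to 5.67 in controls and 5.65 to 5.96 at 3 h, which overlapped slightly. The 2 measured of 15 mural and meningeal markers, DCN and FOXC2, had a mean level of 6.78 to 7.09 in controls and 7.27 to 7.58 at 3 h. Each marker alone overlapped between these groups, and neither passed. DCN had 8.157 to 8.449 in controls and 8.067 to 9.365 at 3 h, and FOXC2 5.317 to 5.829 and 5.796 to 6.484. The 4 astrocyte markers of 13 had 6.57 to 6.61 and 6.45 to 6.96, and FABP7 alone passed in limma (0.39, adjusted p = 0.0488). FABP7 did not pass without replicate 2 (0.25, adjusted p = 0.242) or after centring (adjusted p = 0.15), and it lay below the 5th percentile of the array in all 5 control and all 5 3-hour birds. The 6 neuronal markers of 17 had 9.90 to 10.18 and 9.89 to 10.12, with SNAP25 higher in limma (0.25, adjusted p = 0.0401) and GAP43 (-0.35, adjusted p = 0.0305) and ELAVL4 (-0.25, adjusted p = 0.0386) lower. Without replicate 2 SNAP25 (0.20, adjusted p = 0.153) and ELAVL4 (-0.22, adjusted p = 0.122) did not pass, while GAP43 did (-0.46, adjusted p = 0.00819). SNAP25 did not pass after centring (0.12, adjusted p = 0.382), nor GAP43 without control replicate 4 (adjusted p = 0.0974). Microglia and endothelium had 2 of 13 markers each and no call at 3 h, and no blood marker of 9 was measured. RSPH1 of the ependymal and choroid plexus list lay below the 5th percentile of the array in all 5 control and all 5 3-hour birds. The part of other cells in the level of RSPO1 was not tested.

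Around the 3 genes, 51 of 277 other listed genes of Wnt signalling and adhesion were measured. Against control, 13 of the 51 passed at 3 h (11 higher, 2 lower; 25.5%), near the 28.6% of all identifiers, and their median change, 0.15, was near the 0.16 of all identifiers. Without 3-hour replicate 2 only ARVCF and CDH20 passed. After centring each array on its median 5 passed (3 higher, 2 lower), and after quantile normalisation 8 (5 higher, 3 lower). Of all 26061 identifiers 2490 passed without replicate 2, 5946 after centring and 5816 after quantile normalisation.

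Of the secreted and membrane side of the pathway, 5 of 22 listed ligand and release genes, 4 of 16 receptors and 6 of 24 antagonists were measured. Of the 5 ligands 3 were higher at 3 h in limma. They were WNT7B by 0.77 (adjusted p = 0.0363), WNT8A by 0.45 (0.0144) and WNT5A by 0.29 (0.0323). Of 4 receptors FZD5 passed (0.37, adjusted p = 0.0312), and of 6 antagonists FRZB (0.29, adjusted p = 0.0354). RSPO1 was the only one of 9 genes of the R-spondin axis with a named row, so its receptors and the ligases ZNRF3 and RNF43 were not analysed here. WNT7B was higher than at 1 h too (0.97, adjusted p = 0.0245), but without replicate 2 neither difference of WNT7B passed, at 0.52 and 0.73. In limma at 8 h, WNT7A was lower than control (-0.50, adjusted p = 0.0158) and the axon guidance protein and Wnt antagonist gene DRAXIN higher (0.82, adjusted p = 0.00493). WNT7A did not pass without 8-hour replicate 4 (-0.45, adjusted p = 0.0562), and neither WNT7A (adjusted p = 0.197) nor DRAXIN (adjusted p = 0.0882) passed once the fit held a term for the letter in the titles. Since 4 of the 5 8-hour birds have no letter, that term and the 8-hour group can hardly be told apart.

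Of the genes that act directly on beta-catenin, BTRC, the substrate receptor of the ligase that marks it for degradation, was higher at 3 h by 0.47 (adjusted p = 0.0127 in limma), and by 0.34 without replicate 2, where it did not pass. It was the only one of 6 measured genes of the destruction complex to pass at 3 h. GSK3B, a kinase of that complex, passed in no comparison, with group means from 9.72 to 10.05. No TCF/LEF factor, APC or axin gene had a named row. Of 35 listed Wnt target genes, 7 were measured. Among these BIRC5, a gene of cell division and survival, was higher at 3 h by 0.94 (limma, adjusted p = 0.0356). The hyaluronan receptor CD44 was higher by 0.71 (limma, adjusted p = 0.0115). Neither passed without replicate 2, with 0.67 and 0.50. ID2, another target, was higher at 8 h by 0.98 (adjusted p = 7.28e-05) and not at 3 h. In the calcium arm of Wnt signalling, the phospholipase gene PLCB1 was lower at 3 h (-0.67, adjusted p = 0.0155), and without replicate 2 the change, -0.33, did not pass.

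Beside CDH19, 3 of 25 other listed cadherins had a named row. CDH20 was higher at 3 h by 0.50 (adjusted p = 0.00915 in limma; 0.45 and adjusted p = 0.0354 without replicate 2; adjusted p = 0.0504 after centring). Its level, 3.13 ± 0.11 (SD, n = 5) in controls and 3.63 ± 0.17 (SD, n = 5) at 3 h, lay below the 5th percentile of the array in all 5 control birds and in 3 of 5 birds at 3 h. CDH12 was higher at 8 h than at 3 h by 0.69 (limma, adjusted p = 0.00144), where the mean of CDH19 was lower and 31.9% of identifiers passed. With the title letter as a term, which can hardly be told apart from the 8-hour group, CDH12 did not pass (adjusted p = 0.105). CDH7 differed from 7 d to 14 d by -0.74 (limma, adjusted p = 0.0129), where 14.0% of identifiers passed, and it passed nowhere else. Without 7-day replicate 4 CDH7 did not pass there (adjusted p = 0.0547).

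Among catenins and junction partners, ARVCF, an armadillo protein of the p120-catenin family that binds cadherin tails, had the lowest adjusted p of the 51 genes at 3 h. The mean ± SD of ARVCF was 7.57 ± 0.21 in controls, 7.41 ± 0.24 at 8 h and 7.33 ± 0.34 at 3 d. It was 6.99 ± 0.19 at 1 h, 6.70 ± 0.23 at 3 h, 6.85 ± 0.09 at 7 d and 6.76 ± 0.32 at 14 d, with 5 or 6 birds in each group. Its change against control passed in limma at 1 h (-0.58, adjusted p = 0.0187), 3 h (-0.86, adjusted p = 0.000319), 7 d (-0.71, adjusted p = 0.00317) and 14 d (-0.81, adjusted p = 0.000221), and not at 8 h or 3 d. Without replicate 2 the 3-hour change of ARVCF was -0.81 (adjusted p = 0.00139), and without 1-hour replicate 4 the 1-hour change did not pass (adjusted p = 0.0653). The 4 groups with lower ARVCF are those that share a range of title numbers, so duration and title range cannot be told apart here. VCL, which encodes the actin-binding junction protein vinculin, was higher at 3 h by 0.33 (adjusted p = 0.0363), at 7 d by 0.49 (adjusted p = 0.00716) and at 14 d by 0.63 (adjusted p = 0.000191), all in limma. Its mean was 7.933 in controls, 7.913 at 8 h and 7.915 at 3 d. In the groups of the other title range it was 8.251 at 1 h, 8.258 at 3 h, 8.422 at 7 d and 8.56 at 14 d. For VCL too, duration and title range cannot be told apart. The alpha-catenin gene CTNNA2 was higher at 7 d by 0.58 (adjusted p = 0.0206), but did not pass after centring (0.48, adjusted p = 0.0786), with the title letter as a term (adjusted p = 0.0916) or without control replicate 1 (adjusted p = 0.07). The integrin gene ITGAV was higher at 3 h by 0.46 (adjusted p = 0.0434). Without replicate 2 the 3-hour changes of VCL, 0.34, and ITGAV, 0.31, did not pass.

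At the other times against control, the share of the 51 genes that passed lay near that of all identifiers. It was 3 genes (2 higher, 1 lower; 5.88%) at 1 h, where 8.44% of identifiers passed, and 3 (2 higher, 1 lower; 5.88%) at 8 h against 7.21%. At 3 d 0 passed in limma against 1.05% of identifiers, with 5 at an unadjusted p under 0.05, and 0 also after quantile normalisation or centring. At 7 d 4 passed (3 higher, 1 lower; 7.84%) against 7.87%, and after centring 3 (1 higher, 2 lower). Over all identifiers the 7-day split went from 1211 higher and 841 lower to 669 and 1361 after centring. At 14 d 25 passed (19 higher, 6 lower; 49%) against 50.0%, and this split turned to 8 higher and 15 lower after centring and 12 higher and 12 lower after quantile normalisation. Over all identifiers the split turned from 10182 higher and 2852 lower to 5297 and 5950 after centring. After quantile normalisation it was 6007 higher and 4668 lower. The median change of all identifiers at 14 d was 0.22 and that of the 51 genes 0.25. At 14 d WNT2 (0.84, adjusted p = 0.00178) and the target gene CCN4 (0.70, adjusted p = 0.000703) had the largest rises among the list genes that passed, also after centring (0.61 and 0.48), and the phosphatase subunit gene PPP2R5E (-0.57, adjusted p = 0.0485) had, after ARVCF, the largest fall among them. PPP2R5E did not pass in limma without control replicate 5 (adjusted p = 0.13) or with the title letter as a term (adjusted p = 0.0559).

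Between neighbouring durations, 2 of the 51 genes passed from 1 h to 3 h (both higher), where 5.46% of identifiers passed, and neither without replicate 2. From 3 h to 8 h 20 passed (8 higher, 12 lower; 39.2%) against 31.9% of identifiers. Without replicate 2 it was 12 of the list genes and 5230 of all identifiers. The split was 9 higher and 4 lower after centring. Over all identifiers the split turned likewise, from 2475 higher and 5832 lower to 3731 and 3076. Among the 20 list genes BIRC5 had the largest change in limma, -1.82 (adjusted p = 0.000216; -1.56 without replicate 2). From 8 h to 3 d only ID2 passed (-0.74, adjusted p = 0.00773 in limma), against 0.414% of identifiers. ID2 did not pass there without 8-hour replicate 4 (adjusted p = 0.0615) or in a limma fit of these groups alone (adjusted p = 0.129). From 3 d to 7 d 12 passed (8 higher, 4 lower) against 16.2%, and 4 higher and 6 lower after centring. Over all identifiers that split went from 2831 higher and 1396 lower to 1484 and 2328. From 7 d to 14 d 8 passed (3 higher, 5 lower) against 14.0%. Between the singing groups and 1 h 0 passed in limma, against 0.599% of identifiers, with 3 at an unadjusted p under 0.05 and 0 also after centring or quantile normalisation. These counts of list genes moved with single birds. From 3 d to 7 d they ran from 4 without 3-day replicate 4 to 15 without 3-hour replicate 2. That 3-hour bird is in neither group, and it acts there through the spread that all 39 arrays share. Without it 6601 of all identifiers passed from 3 d to 7 d. From 7 d to 14 d the counts of list genes ran from 2 without 7-day replicate 4 to 21 without 7-day replicate 6.

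**Figure D5:**
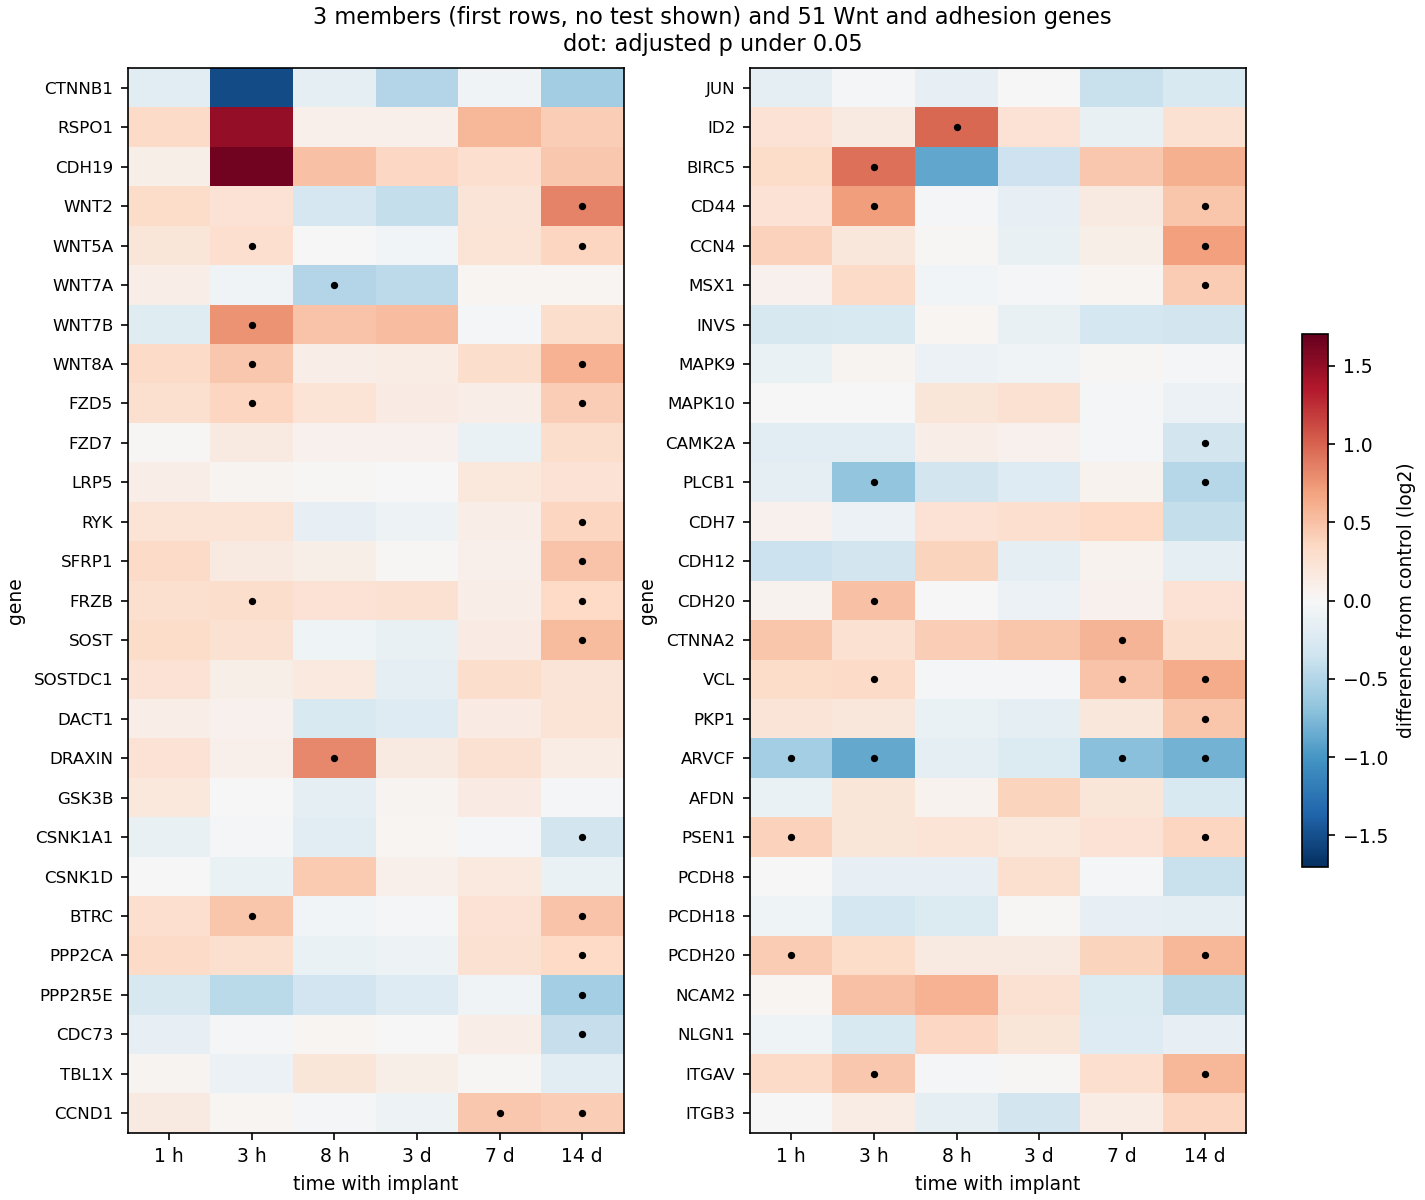
Difference from control (log2, colour) at each of 6 times for RSPO1, CTNNB1, CDH19 (first rows, no test shown) and the 51 other measured Wnt and adhesion genes, with a dot where the adjusted p in limma was under 0.05. The 3 genes have their deepest colours at 3 h, while the dots of the other genes are most frequent at 14 d (25) and 3 h (13).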

How the data were processed

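HVC RNA of 39 birds was measured on 39 Affymetrix arrays, 1 per bird, after amplification with the Ambion WT Expression Kit, per the labels. The deposited table holds log2 values made by the authors for 26061 identifiers. That the scale is log2 was inferred from their range. The submitters' processing notes list affy and Affymetrix Expression Console without versions. How probes were summarised and arrays normalised is not given, and the values were used unchanged.

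Identifiers were paired with symbols through RefSeq accessions without versions, from a table of zebra finch genes (bTaeGut7.mat). A gene was found for 2471 identifiers, which gave 2236 genes with a symbol, and the brightest row stood for a gene. Sequences of the array features and of the genes were not used here.

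A mean per group was fitted to all 39 arrays with limma 3.58.1 (R 4.3.3), with eBayes and Benjamini-Hochberg adjustment over all identifiers in each contrast. All 39 arrays thus gave 1 shared estimate of the spread per identifier, except where a fit of groups alone is named. Planned tests of the 3 genes that hold 1-hour or 8-hour birds are given as descriptions without p, since the choice had used those birds. All tests were two-sided, and an adjusted p under 0.05 passed. The code was tested on simulated data. Exact permutation tests were run with SciPy 1.17.1. The 3 genes, the lists of Wnt, adhesion and cell type genes and the contrasts were chosen with earlier results of these data known. Genes named are the 3 genes, up to 3 closest to each by r, the list genes that passed at 3 h, up to 4 of a list with the largest change elsewhere, and cadherins, catenins, R-spondin axis genes and beta-catenin partners where measured. Markers were named by their lists. Of the genes named at other times, not all that this rule allows are printed. Results of 1 gene that the rule and the marker lists would name are not reported here.

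Alternatives were quantile normalisation, centring on array medians, leaving out each bird, eBayes with trend and robust options, a filter on rows under the 25th percentile, fits of the groups compared alone, the replicate number as a block, the title letter as a term, the array median as a covariate and an adjusted p under 0.01. Centring together with leaving out 3-hour replicate 2, the letter and block terms for described values, and the comparison inside 1 title range were chosen after seeing the data. Replicates are labelled biological. Figures used Python 3.11.15, pandas 2.3.3 and matplotlib 3.10.9.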

Additional observations from a re-analysis of the deposited data

Results flagged for a closer look

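Of 21 groups of birds (3 genes in 7 groups), 3 held a bird that lay far from the rest by Dixon's ratio of gap to range. For normal values chance alone meets this criterion in about 1 in 20 groups. The 3 genes share the same arrays, and 3-day replicate 2 was flagged for both CTNNB1 and RSPO1. The 21 groups are thus not independent, and their count is not set against that rate. For CTNNB1, 3-day replicate 2 had 7.18 and the other 5 birds 10.18 to 10.91. The same bird had the highest RSPO1 of its group, 8.72, where the others had 7.30 to 7.77, and CDH19 at 7.79, inside the range of its group. Its array had a median value of 7.68, and its correlations with the rest had a median of 0.983. For RSPO1, 1-hour replicate 4 had 8.81 and the other 5 birds 7.67 to 7.99. Its array had a median of 7.85, and after centring on array medians the bird was still the highest of the 1-hour group, at 8.63. The wide spread of CTNNB1 at 3 h, from 7.51 to 10.18, did not meet this criterion, since its birds form no single distant value.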

How the results depend on the processing

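None of the 3 genes passed a test in the main fit, so they had no called value that could change sign. Differences did turn sign with single birds left out. Examples are CTNNB1 from 3 d to 7 d (0.44 to -0.12 without 3-day replicate 2) and RSPO1 at 8 h against control (0.08 to -0.13 without 8-hour replicate 4). Of the described differences, CTNNB1 at 8 h against control went from -0.16 to -0.74 with the title letter as a term, and RSPO1 at 14 d from 0.42 to 0.20 after quantile normalisation and 0.19 after centring. At 8 h the letter and the group can hardly be told apart, since 4 of the 5 birds have no letter. The adjusted p of CTNNB1 from 7 d to 14 d (-0.53) fell to 0.0296 in a fit of these groups alone, and RSPO1 from 3 d to 7 d passed at 0.66 without 3-day replicate 2 (range 0.35 to 0.66 over single birds left out). The other tests of the 3 genes stayed on their side of the threshold under each alternative run. Each gene has 1 row, so the mean over rows of a gene gave the same values. Counts of the 51 list genes depended most on the processing. Counts over all 26061 identifiers moved too, so such shifts were not confined to the list. At 3 h they went from 7459 to 5816 after quantile normalisation and 5946 after centring. The covariate gave 1886 identifiers at 3 h, the letter 4191 and the groups alone 247. At 14 d the covariate took the identifiers that passed from 13034 to 184. For 1 h against control (3 genes), the array median as a covariate gave 0, the 2 groups alone 1 and an adjusted p under 0.01 gave 0. Over all identifiers 2199 passed at 1 h in the main fit, 246 with the covariate and 253 with the groups alone. For 3 h (13), quantile normalisation gave 8, centring 5, the letter 6, the covariate 3, the groups alone 1 and p under 0.01 gave 2. For 8 h (3) the letter gave 1, and the covariate and the groups alone 5 each. Over all identifiers 1878 passed at 8 h in the main fit, 301 with the letter, 3285 with the covariate and 3911 with the groups alone. For 3 d (0) the covariate gave 1. For 7 d (4) the letter and p under 0.01 gave 2 each. For 14 d (25) the covariate gave 0 and p under 0.01 gave 16. From 1 h to 3 h (2), quantile normalisation gave 1, the replicate block 1, and the filter on dim rows, the groups alone and p under 0.01 gave 0. From 3 h to 8 h (20), centring gave 13, the letter 2, the covariate 11, the groups alone 12 and p under 0.01 gave 10. Over all identifiers 8307 passed there in the main fit. Centring gave 6807 of them, the letter 652, the covariate 3581 and the groups alone 3879. From 8 h to 3 d (1), the replicate block and the covariate gave 2 each and the groups alone 0. From 3 d to 7 d (12), the letter and the covariate gave 4 each and p under 0.01 gave 3. Over all identifiers 4227 passed there in the main fit, 966 with the letter and 2441 with the covariate. From 7 d to 14 d (8), the covariate gave 0 and p under 0.01 gave 2. Over all identifiers 3653 passed there in the main fit and 122 with the covariate. With single birds left out, the counts ran from 0 to 17 at 1 h, 2 to 14 at 3 h, 3 to 4 at 8 h, 0 to 1 at 3 d, 2 to 6 at 7 d and 18 to 27 at 14 d. From 1 h to 3 h they ran from 0 to 3, from 3 h to 8 h 12 to 21, from 8 h to 3 d 0 to 2, from 3 d to 7 d 4 to 15 and from 7 d to 14 d 2 to 21. Leaving out 3-hour replicate 2 moved counts where no 3-hour bird is compared, through the spread shared by all arrays. List counts went to 8 at 1 h, 1 at 3 d and 6 at 7 d. Those of all identifiers went from 2199 to 5130, from 273 to 714 and from 2052 to 4209. For the other birds left out, counts over all identifiers are not given here. Same-numbered birds of different groups correlated at -0.691 to 0.381 (median 0.0318) in their deviations from group means. Birds with different numbers correlated at -0.542 to 0.667 (median 0.00417). Whether same-numbered birds share more than a number was not tested. The replicate block moved no other count by over 1.5 times, and with it the 3-hour difference of RSPO1 was 1.49. The cause of the other shifts was not tested.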
